A study of Mus musculus with 4 samples.

Results

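The globin genes of the mouse alpha and beta clusters were examined in dissected frontonasal prominences (FNP), from which the nose and snout form. The genes were taken by symbol from the autosomal expression table, which has 33708 rows, and all 7 were found. They comprise 3 genes for embryonic type chains, Hba-x, Hbb-y and Hbb-bh1, and 4 genes for adult type chains, Hba-a1, Hba-a2, Hbb-bs and Hbb-bt. RNA sequencing had been done on the FNP of 4 embryos on the FVB/NJ background, collected at E10.5 with 29 somites each. In 2 of them, 1 female and 1 male by their labels, Smchd1 was wild type (WT). The other 2, both male, were homozygous for MommeD43 (MD43), a missense allele of the chromatin silencing gene Smchd1 that was made by chemical mutagenesis. The allele came from a screen in mice with a GFP transgene array expressed in red cells and was later crossed away from that array. WT replicate 2 and MD43 replicate 2 had the same mother, and the other embryos came from different mothers. The sex of WT replicate 2 is recorded as female elsewhere in the study's files, so both WT embryos may have been female. The comparison asks which of these transcripts differ in level between WT and MD43.

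Haemoglobin is a tetramer of alpha type and beta type chains, each with a haem group, and carries oxygen in red cells. The first red cells of the mouse, the primitive lineage from the yolk sac, circulate at this stage and express the embryonic chains, whereas the adult beta chains are typical of the definitive lineage that later matures in the fetal liver. Within primitive cells expression also shifts with maturation, from Hba-x toward the adult alpha genes and from Hbb-bh1 toward Hbb-y. Neural crest mesenchyme and facial ectoderm make no haemoglobin, so globin RNA in a dissected prominence stands for the blood in it. In such bulk tissue, fewer red cells and less RNA per red cell cannot be told apart. No step that removes blood before RNA extraction is given in the sources used here.

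The alpha cluster lies on chromosome 11 and the beta cluster on chromosome 7. In GRCm38, Hba-x (ENSMUSG00000055609) spans positions 32276400 to 32278116, Hba-a1 (ENSMUSG00000069919) 32283511 to 32284465 and Hba-a2 (ENSMUSG00000069917) 32296489 to 32297298, all on the plus strand of chromosome 11. On the minus strand of chromosome 7, Hbb-y (ENSMUSG00000052187) spans 103851749 to 103853216, Hbb-bh1 (ENSMUSG00000052217) 103841637 to 103843164, Hbb-bs (ENSMUSG00000052305) 103826534 to 103828096 and Hbb-bt (ENSMUSG00000073940) 103812524 to 103813996. In both clusters the embryonic genes come first in the direction of transcription.

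The adult genes of each cluster are near copies of each other, which limits how well reads can be assigned to a single gene. The longest GENCODE transcript of each gene was cut into all windows of 75 bases, the length of a read in this study. Among these windows, 62.2% of those of Hba-a1 and 81.0% of those of Hba-a2 were also found in a transcript of the other alpha gene. For Hbb-bs and Hbb-bt the shares were 64.3% and 56.6%. None of the windows of Hba-x, Hbb-y or Hbb-bh1 was found in a transcript of another member or of the globin genes Hbq1a, Hbq1b and Hbb-bh2. Other transcripts were not searched. How the authors' software treated reads that fit both copies is not given in the sources used here, and the reads of FVB/NJ embryos were mapped to a reference assembly of another strain. Values of single adult genes are therefore uncertain, and the sum of each pair is given beside them. A sum depends less than the single values on which copy a shared read was given to. Some dependence remains, because RPKM divides by length and the copies differ in exon length. Hba-a1 has 812 exon bases and Hba-a2 667, and Hbb-bs has 768 and Hbb-bt 703. A sum would also be too low if shared reads were dropped, and too high if they were counted for both copies.

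The likeness extends upstream. The 120 bases before the RefSeq start site (GRCm38.p6) are shown to let the embryonic and adult genes be compared, each 5′ to 3′ on its own strand. Capitals mark matches on either strand to a set of short motifs. CACCC is the core of the motif bound by the erythroid factor Klf1. CCAAT is bound by the general factor NF-Y. The motif AGATAA is bound by Gata1, the master factor of red cells. The last, ATAAA, is part of many TATA boxes.
Hba-x, chr11:32276480-32276599, plus strand: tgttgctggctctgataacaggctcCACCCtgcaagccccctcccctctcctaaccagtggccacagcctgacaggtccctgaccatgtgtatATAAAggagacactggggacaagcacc
Hbb-y, chr7:103853208-103853327, minus strand: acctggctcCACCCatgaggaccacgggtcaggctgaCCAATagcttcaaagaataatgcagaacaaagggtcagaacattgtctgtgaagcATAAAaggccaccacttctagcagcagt
Hba-a1, chr11:32283552-32283671, plus strand: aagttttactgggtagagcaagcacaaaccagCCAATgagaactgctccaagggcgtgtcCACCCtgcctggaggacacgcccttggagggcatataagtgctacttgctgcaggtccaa
Hba-a2, chr11:32296372-32296491, plus strand: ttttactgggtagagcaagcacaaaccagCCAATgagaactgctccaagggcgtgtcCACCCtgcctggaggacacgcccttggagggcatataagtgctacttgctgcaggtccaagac
Hbb-bs, chr7:103827929-103828048, minus strand: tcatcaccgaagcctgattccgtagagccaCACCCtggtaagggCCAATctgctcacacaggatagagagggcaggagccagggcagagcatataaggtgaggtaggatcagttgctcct
Hbb-bt, chr7:103813924-103814043, minus strand: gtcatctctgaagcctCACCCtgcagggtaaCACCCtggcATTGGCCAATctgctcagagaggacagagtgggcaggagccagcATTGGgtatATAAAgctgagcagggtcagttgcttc
Pairs were compared without gaps, each at the shift that gave the most identical bases. Between Hba-a1 and Hba-a2, 117 of 117 bases were identical (shift 3), against 88 of 119 (73.9%) between Hbb-bs and Hbb-bt (shift -1). Hba-x and Hba-a1 matched at 39 of 120 bases (shift 0), and Hbb-y and Hbb-bs at 38 of 113 (shift -7). How many bases unrelated windows match at their best shift was not tested. CACCC was present in all 6 windows and CCAAT in 5 of 6, Hba-x being the exception, while over 32851 promoter windows of the same length 31.7% held CACCC and 21.3% held CCAAT. The element ATAAA was found in Hba-x, Hbb-y and Hbb-bt and in 20.2% of all windows. Hba-a1, Hba-a2 and Hbb-bs hold CATATAAG near the start site, which ATAAA does not match. In Hbb-bt a pair of CCAAT matches on opposite strands lies side by side. AGATAA occurred in none of the 6, against 4.36% of all windows. Other forms of the Gata motif were not searched, and the Hba-x window holds TGATAA. A match is a match of letters only.

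The authors' value of a genotype is a mean of the log2 RPKM (reads per kilobase of transcript, scaled to library size) of its 2 embryos, so no SD over embryos and no test over embryos can be had from it. The implied depth was 22328791 reads per MD43 library and 16055882 per WT library, and reads below are geometric means of 2 libraries recovered from the values. Errors after ± are the smallest counting errors these reads allow (SE), and intervals are 95% counting intervals. Neither covers variation between embryos.

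All 3 embryonic chains were higher in MD43, by 1.73-fold to 2.06-fold. The adult chains divided by cluster, with the alpha pair higher and the beta pair lower in MD43. Of the 7 genes, 5 were higher in MD43 and 2 were lower. All 7 reached 10 reads in both genotypes, and 2 of them, Hbb-bh1 and Hba-a2, were at least 2-fold higher, a size reached by 1.64% of the 15377 genes that reached 10 reads in 1 genotype or both. None was 2-fold lower, against 2.47% of those genes. By direction alone, 7870 of the 15377 genes were higher in MD43 and 7507 were lower.

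Hbb-bh1, which encodes the beta-h1 chain of early primitive cells, was the highest of the 7 in both genotypes. MD43 embryos had 11.47 log2 RPKM (38866 reads), against 10.43 (13591 reads) in WT embryos. The difference was 1.04 ± 0.01, or 2.06-fold. Hbb-y, the epsilon-y chain, stood at 11.14 log2 RPKM in MD43 and 10.30 in WT, a difference of 0.84 ± 0.01. Hba-x, the zeta chain and the embryonic partner on the alpha side, stood at 9.46 and 8.67 log2 RPKM, a difference of 0.79 ± 0.02. The 3 embryonic genes thus moved by similar amounts, with Hbb-bh1 exceeding Hbb-y by 0.20 ± 0.01 in its difference between genotypes. The level of Hbb-bh1 over that of Hbb-y was 1.26-fold in MD43 and 1.09-fold in WT.

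Hba-a1, an adult alpha gene that primitive cells also express, was next in level. It stood at 7.38 log2 RPKM (3020 reads) in MD43 and at 6.70 (1359 reads) in WT, a difference of 0.68 ± 0.03. Its copy Hba-a2 stood at 4.91 and 2.33 log2 RPKM, from 446 and 54.0 reads, and its difference of 2.57 ± 0.15 (5.95-fold) was the widest of the 7. Hba-a1 exceeded Hba-a2 by 5.56-fold in MD43 and by 20.7-fold in WT, in genes whose upstream 117 bases are the same letters. Summed, the pair reached 197 RPKM in MD43 and 109 RPKM in WT, a difference of 0.85 ± 0.03 or 1.80-fold, close to the 0.79 of Hba-x. The part of the shared windows in the value of Hba-a2 alone was not tested.

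Hbb-bs and Hbb-bt, which encode the adult beta chains, were the only members lower in MD43. Hbb-bs stood at 3.53 log2 RPKM (199 reads) in MD43 and at 3.81 (173 reads) in WT, a difference of -0.28 ± 0.11 with an interval of -0.48 to -0.07. Hbb-bt stood at 1.89 and 2.42 log2 RPKM, from 58.2 and 60.5 reads, a difference of -0.53 ± 0.19 with an interval of -0.90 to -0.16. The summed pair had 15.3 RPKM in MD43 and 19.4 RPKM in WT, a difference of -0.34 ± 0.09 or 1.27-fold lower. Neither interval reaches 0, but the intervals hold counting error alone.

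**Figure D1:**
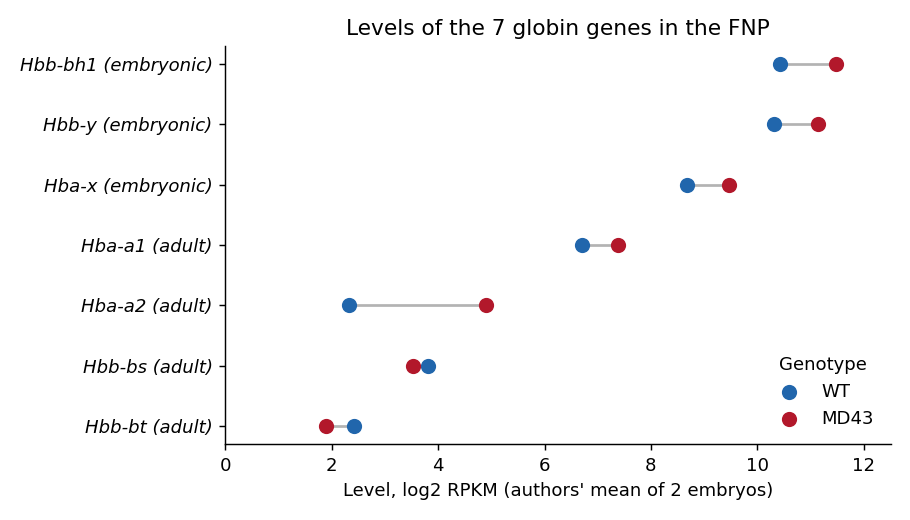
Level of each globin gene on the log2 RPKM scale in WT (blue) and MD43 (red), each point the authors' mean of 2 embryos. MD43 lies to the right of WT for Hbb-bh1, Hbb-y, Hba-x, Hba-a1 and Hba-a2 and to the left for Hbb-bs and Hbb-bt.

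The order of levels, compared per length, was the same at the top in both genotypes. Hbb-bh1, Hbb-y, Hba-x and Hba-a1 followed each other, and the smallest of these steps was the 0.33 ± 0.01 between Hbb-bh1 and Hbb-y in MD43 and the 0.13 ± 0.01 between them in WT. Hba-x exceeded Hba-a1 by 4.24-fold in MD43 and 3.91-fold in WT, values that also depend on how shared reads were counted for Hba-a1. Below Hba-a1 the order changed, from Hba-a2, Hbb-bs and Hbb-bt in MD43 to Hbb-bs, Hbb-bt and Hba-a2 in WT. In WT, Hbb-bt and Hba-a2 differed by 0.09 ± 0.19 on the log2 scale, which is within counting error, whereas each of the other steps between neighbours was well beyond its counting error. Hbb-bs exceeded Hbb-bt by 3.12-fold in MD43 and 2.62-fold in WT.

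The contrast between embryonic and adult chains differed between the clusters. In the beta cluster, the difference between genotypes averaged 0.94 over Hbb-y and Hbb-bh1 and -0.40 over Hbb-bs and Hbb-bt, so that the embryonic genes exceeded the adult genes by 1.34 ± 0.11. In the alpha cluster the same contrast was -0.83 ± 0.08 with Hba-a1 and Hba-a2 as 2 genes, but -0.05 with the pair summed and 0.12 ± 0.04 against Hba-a1 alone. Over all 7 genes the embryonic mean of 0.89 exceeded the adult mean of 0.61 by 0.28 ± 0.07, a value that Hba-a2 pulls down. With each adult pair summed it was 0.64, and without Hba-a1 and Hba-a2 it was 1.29.

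**Figure D2:**
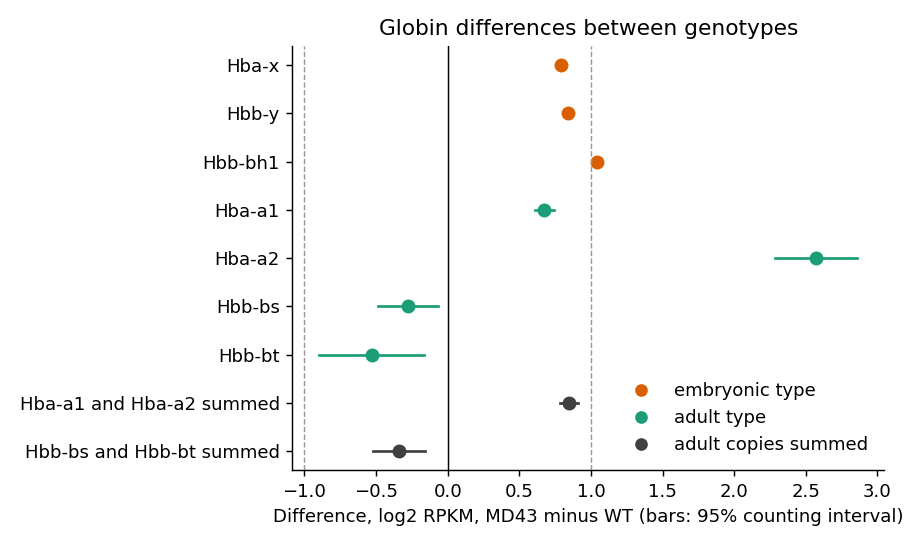
Difference in log2 RPKM, MD43 minus WT, for each embryonic (orange) and adult (green) globin gene and for the summed adult pairs (black). Bars are 95% counting intervals and dashed lines mark 2-fold. The embryonic genes lie between 0.79 and 1.04, the summed alpha pair at 0.85 and the summed beta pair at -0.34.

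As a share of output, the adult chains made up 21.8% ± 0.23 of the summed RPKM of the alpha cluster in MD43 and 21.1% ± 0.35 in WT, 2 values whose 95% counting intervals overlap. In the beta cluster the adult share was 0.299% ± 0.013 in MD43 and 0.728% ± 0.034 in WT. Both genotypes therefore had an almost wholly embryonic beta output beside an alpha output with a sizeable adult part. Beta cluster RNA exceeded alpha cluster RNA in summed RPKM by 5.66-fold in MD43 and 5.15-fold in WT. These shares and ratios rest on adult values in which shared reads may have been dropped or counted for both copies. The size of that effect was not tested. The 7 genes together took 0.40% of the reads in MD43 and 0.213% in WT, and embryonic genes held 95.8% and 95.2% of these globin reads.

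**Figure D3:**
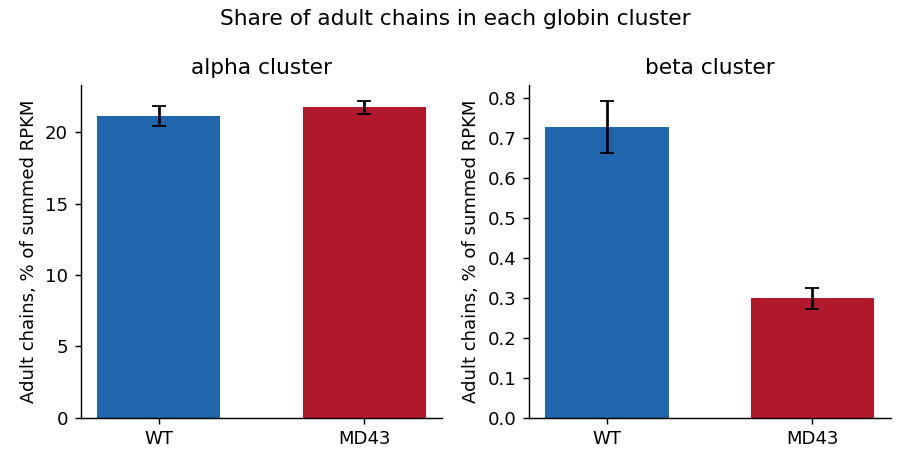
Adult chains as a percent of the summed RPKM of the alpha cluster (left) and the beta cluster (right) in WT and MD43, on axes of different scale that start at 0. Bars carry 95% counting intervals. The share is near 21% in both genotypes in the alpha cluster and 0.728% in WT against 0.299% in MD43 in the beta cluster.

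The remaining globin genes of the table were barely detected. Hbq1b, a theta type gene of the alpha cluster, had 8.12 reads (MD43) and 6.32 reads (WT). Hbb-bh2, between Hbb-bs and Hbb-bh1, had 2.12 in MD43. Hbq1a had at most 1 read in either genotype. Outside the clusters, cytoglobin (Cygb), which mesenchymal cells express, had 53.8 (MD43) and 38.2 (WT) reads and a difference of 0.02 ± 0.22. Myoglobin (Mb) had 7.94 and 2.83 reads and neuroglobin (Ngb) no more than 3 in either genotype. Of the globins outside red cells, Cygb alone had enough reads to be compared.

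Among 7678 deeply covered genes, those reaching 500 reads in 1 genotype or both, Hbb-bh1 ranked 4th by its difference in favour of MD43, Hbb-y 12th, Hba-x 13th and Hba-a1 19th. The first was Slc4a1, the anion exchanger of the red cell membrane, at 1.52 ± 0.08. The other genes among the 10 with the largest differences were not red cell genes. Gm15564, an antisense transcript, stood at 1.08, Pitx1, a homeobox gene of oral ectoderm, at 1.05, Lars2 2.01-fold higher, the retinoic acid synthesis gene Aldh1a3 at 0.96, the receptor Erbb3 at 0.92 and the epithelial protease St14 at 0.89. AY036118 (0.98) and Gm42418 (0.96), at one locus on chromosome 17, carry ribosomal RNA sequence. Ribosomal RNA is largely removed by poly(A) selection, and what remains varies with library preparation. The values of both rows moved with genotype about as much as the embryonic globins, and their part in the globin difference was not tested.

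Most other red cell genes were higher in MD43 too, and 7 of the 10 that passed 2-fold belonged to the membrane and skeleton. Of 14 membrane and skeleton genes with enough reads, 12 were higher and 7 of them at least 2-fold, with a median difference of 1.03 beside 0.01 over all 15377 genes. Besides Slc4a1, these were Rhag at 1.38 ± 0.28, Ermap at 1.33 ± 0.17, Rhd at 1.29 ± 0.36, Kel at 1.20 ± 0.25, the ankyrin gene Ank1 at 1.11 ± 0.14 and the spectrin gene Sptb at 1.09 ± 0.10. Membrane genes that many cell types use differed little, with 0.17 for Epb41, 0.07 for Add2 and -0.03 for Gypc. Aqp1, also an endothelial water channel, was the lowest of the list at -0.83 ± 0.32.

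Of 12 genes for iron uptake, red cell enzymes and other red cell functions, all 12 were higher in MD43, with a median of 0.42. No gene for globin folding was among those compared. The 3 past 2-fold were Trim10 at 1.34 ± 0.19, the ferrireductase Steap3 at 1.26 ± 0.24 and Hemgn, a red cell nuclear protein, at 1.19 ± 0.15. The genes with the most reads, which are not restricted to red cells, had 0.42 (Bpgm), 0.16 (Tfrc), 0.15 (Xpo7) and 0.06 (Prdx2). All 11 haem synthesis genes compared were higher as well, by 0.03 to 0.45, and none by 2-fold. The median of the haem genes was 0.23, and Alad stood at 0.27 and the mitochondrial iron importer Slc25a37 at 0.35. Car1, an enzyme of definitive red cells, and Tspo2 had no reads in any library.

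The erythroid transcription factors had a median of 0.19 over 9 genes. Klf1, which activates adult beta globin and many membrane genes, stood at 0.88 ± 0.19 and Tal1 at 0.66 ± 0.11. Nfe2 at 0.46 ± 0.25, Zfpm1 at 0.31 ± 0.10 and Gfi1b at 0.19 ± 0.28 were less raised, Gfi1b within its counting error. The cofactor Ldb1 (0.03), Klf3 (0.02), Klf13 (-0.13) and Lmo2 (-0.11) differed little. The regulators of the switch from embryonic to adult globins had a median of 0.01 over 12 genes, none of which reached 2-fold. Bcl11a, a repressor of embryonic globins, stood at -0.23 ± 0.06, Sox6, its partner, at 0.15 ± 0.04 and Myb at 0.32 ± 0.11. Klf1, Tal1, Bcl11a, Sox6 and Myb are named here for their roles, and Nfe2, Zfpm1 and Gfi1b to complete the list of factors. The most abundant regulators, Chd4 (0.18), Igf2bp3 (0.00), Lin28b (0.14) and Nr2c2 (-0.06), are widely expressed in embryos, so their levels here need not be those of red cells. Of the definitive progenitor markers, 5 of 6 were higher, with a median of 0.27 and with Kit at 0.22, Gata2 at 0.32, Mecom at 0.05 and Cd34 at -0.10.

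Over the 4 red cell lists, 42 of 46 genes were higher in MD43 and 10 (21.7%) were at least 2-fold higher. Over all 15377 genes, 7870 were higher, 7507 were lower and 1.64% were at least 2-fold higher. Other lists differed from this pattern. Platelet and megakaryocyte genes were lower in 5 of 5 cases, with Pf4 at -0.92 ± 0.21, Gp1bb at -0.41 ± 0.13 and Itga2b at -0.05 ± 0.22. Ppbp stood at -0.997 ± 0.42, from only 10.1 reads in MD43 and 14.5 in WT. The summed level of all 9 listed genes was 6.41 RPKM in MD43 and 9.92 in WT. Macrophage markers were lower in 7 of 7 cases, with a median of -0.19. They ranged from C1qb at -0.89 ± 0.28 to C1qa at -0.02 ± 0.44, and Csf1r at -0.03 ± 0.09 was also within its counting error. The summed level of all 10 listed genes, 3 of them with too few reads to count, was 4.98 RPKM in MD43 and 6.18 in WT. Endothelial markers were higher in 4 of 12 cases, with a median of -0.08 and summed levels of 29.5 (MD43) and 31.0 (WT) RPKM. They ranged from Kdr at -0.33 to Plvap at 0.47, with Cdh5 at -0.01. Frontonasal mesenchyme markers had a median of -0.05, with Alx4 at 0.01, Msx1 at -0.17, Tfap2b at 0.02 and Prrx1 at -0.29. Their part in the red cell differences was not tested.

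**Figure D4:**
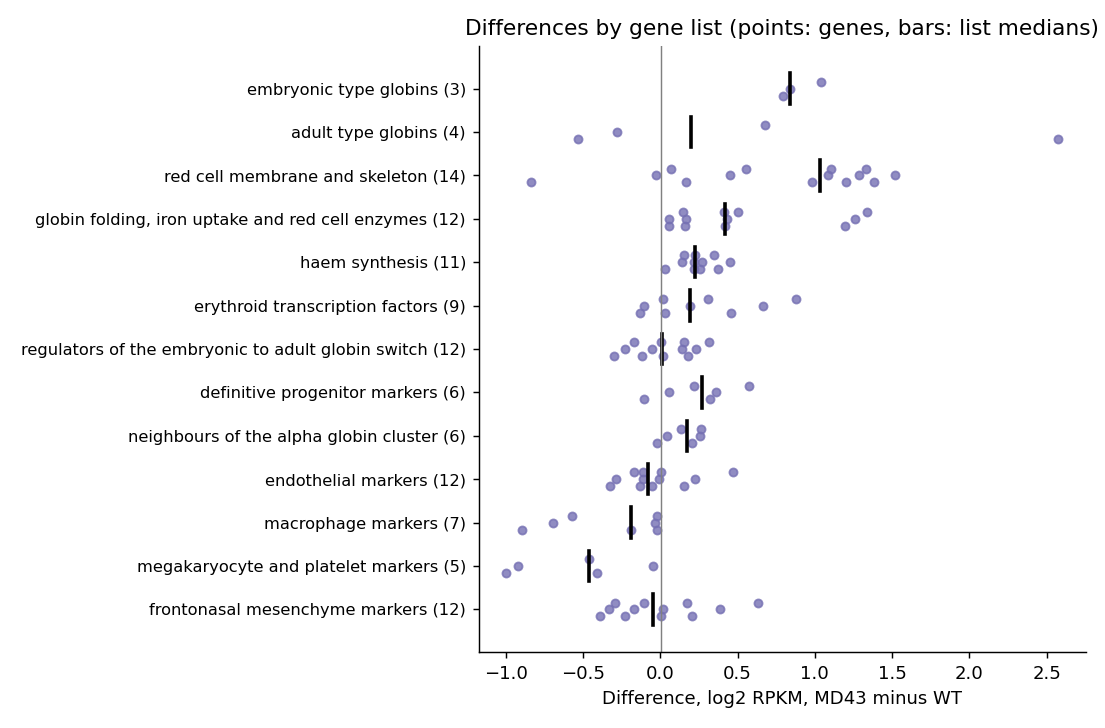
Difference in log2 RPKM, MD43 minus WT, of each gene that reached 10 reads, by list. Black bars are list medians, the grey line is the median of all genes, and the number of genes stands in parentheses. The list medians of the red cell membrane genes (1.03) and the embryonic globins (0.84) lie farthest to the right, and the single gene farthest to the right is Hba-a2 at 2.57.

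Genes around the alpha cluster had smaller differences than its members. Nprl3, whose introns hold enhancers of the alpha genes, stood at 0.21 ± 0.05, Snrnp25 at 0.26 ± 0.05, Ubtd2 at 0.13 and Sh3pxd2b at 0.04. Around the beta cluster, 6 olfactory receptor genes and 2 Usp17l genes had no reads in any library and could not be compared. Trim21 and Trim68, which lie much farther along chromosome 7 and not beside the cluster, stood at 0.12 ± 0.13 and 0.00 ± 0.09.

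Whether embryos of 1 genotype differed from each other could be bounded, since the value of a genotype gives the product of the reads of its 2 libraries. Where that product is known to the whole number, the 2 read counts must be factors of it, and the most even pair of factors gives the smallest ratio by which the embryos can differ. Which embryo had more reads cannot be told, and the ratio includes any difference in depth. Apart from 1 read and the rest, a single split was possible for 210 genes in MD43 and 231 in WT. Their median ratio was 1.52 in MD43 and 1.50 in WT, which gives the usual gap between the libraries. The 95th percentile was 2.71 in MD43 and 3.41 in WT, and 3.33% and 6.49% of these genes had ratios of at least 3.

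For the WT reads of 3 adult globins, and for Hbb-bt in both genotypes, the factors leave few choices. The WT reads of Hbb-bs were 155 and 193 at the most even, and the next pair, 31 and 965, is far wider. The WT reads of Hbb-bt were 53 and 69 or, next, 23 and 159, and its MD43 reads were 39 and 87 or 29 and 117. Hbb-bt reads in MD43 therefore differed by at least 2.23-fold between the embryos, or 1.47 times the usual gap, beside the 1.44-fold by which the genotypes differ. That smallest ratio is below the 95th percentile of 2.71 given above. For Hbb-bs in MD43 the most even pair was 180 and 219, the first of 24 possible pairs. Hba-a2, with 18 possible pairs in MD43, had 443 and 450 reads in MD43 at the most even and 53 and 55 in WT, followed by 225 and 886 in MD43 and 11 and 265 in WT. The products of Hba-a1 and the 3 embryonic genes were too large to resolve.

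Some red cell genes differed several-fold between embryos of the same genotype. In MD43, 5 of the 21 genes of the red cell lists that could be resolved (23.8%) had reads at least 3-fold apart however they are split, against 0.616% of 5356 genes. In WT it was 2 of 21, against 1.01% of 5922 genes. Klf1 had 51 and 193 reads in MD43 at the most even, Hemgn 103 and 415, Ermap 72 and 347 and Nfe2 23 and 95. Some products fix the pair unless 1 embryo had a single read. Rhd had 17 and 73 reads in MD43, Epb42 19 and 83 reads in WT and Ermap 19 and 107 reads in WT. These ratios of 4.29, 4.37 and 5.63 were 2.83 to 3.75 times the median ratio of their genotype. Among the genes with a single split, 4 of 210 in MD43 reached the ratio of Rhd. In WT, 6 of 231 reached that of Epb42 and 4 of 231 that of Ermap, the named genes included. Among platelet and megakaryocyte genes 1 of 3 was forced to a ratio of 3 in MD43 (Itga2b, 3.07) and none of 3 in WT, and none of the 11 endothelial markers resolved in each genotype was.

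Of the 10 red cell genes past 2-fold between genotypes, 9 were resolved in MD43. For 3 of them, Rhd, Ermap and Hemgn, the smallest possible gap between the MD43 embryos was 4.03-fold to 4.82-fold, or 2.65 to 3.17 times the usual gap, beside 2.29-fold to 2.52-fold between the genotypes. In each of these 3 the difference between genotypes was no larger than the smallest gap between the MD43 embryos. The other 6 can be split evenly enough that no such gap is forced, which leaves their spread unmeasured. Whether the same holds for the embryonic globins could not be measured, as their products are not resolved. The split of reads, the threshold of 3 and the genes named for it were chosen with these values in view.

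**Figure D5:**
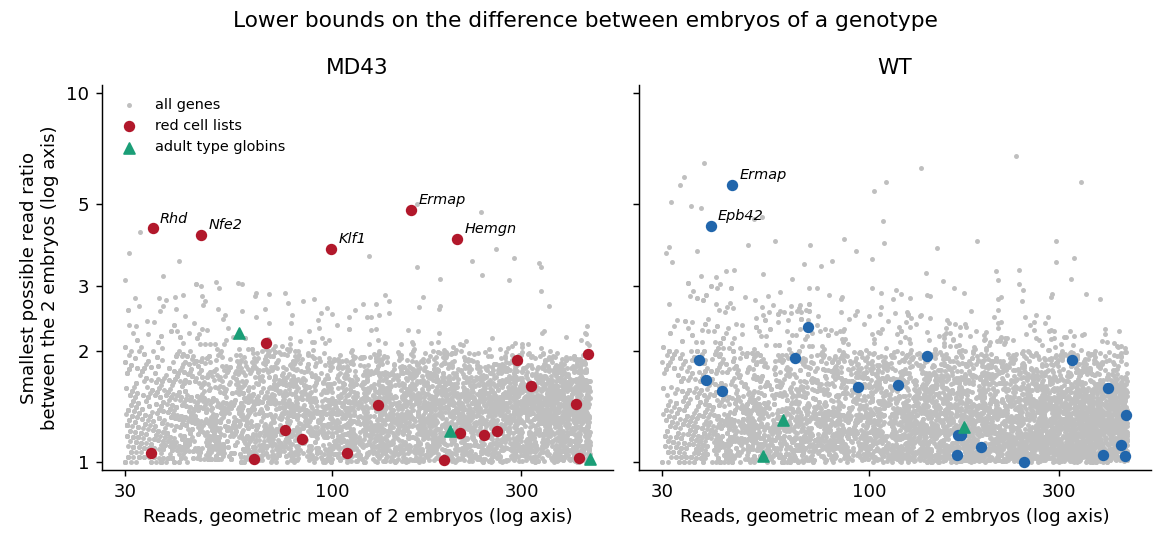
Smallest ratio by which the reads of the 2 embryos of a genotype can differ, against the geometric mean of their reads, for MD43 (left) and WT (right), both axes logarithmic. Grey points are all resolved genes up to a ratio of 10, coloured circles red cell genes and triangles adult globins. The 5 named red cell genes in MD43 lie between 3.78 and 4.82 and the 2 in WT at 4.37 and 5.63.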

How the data were processed

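The authors prepared stranded poly(A) libraries from 100 ng of total RNA of snap-frozen FNP, sequenced single 75-base reads, trimmed them with Trim Galore (0.4.4), mapped them to GRCm38.p6 with HISAT2 (2.0.5) and quantified genes in SeqMonk. The deposited table holds log2 RPKM values made by the authors, in 1 column per genotype that is the mean of 2 libraries, for 33708 genes on 19 autosomes. Its columns of the authors' FDR, fold change and average expression were not used.

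Rows were joined to GENCODE M21 on symbol and position (33101 matched) for exon lengths. A library without reads stands in the table as 0.9 reads, so the genes without reads set the scale from which the product of the reads of both libraries was computed for each gene. Of the products from 900 to 200000, 99.7% lay within 0.1 of a whole number in each genotype, and these were split into factors. The recovery was tested on simulated data. Differences are MD43 minus WT. The 15377 genes that reached 10 reads in 1 genotype or both were used for counts, and 2-fold is the call. Groups came from the sample labels. No SD, replicate test or p-value could be computed, although tests on values per library had been considered. Where levels of genes are summed, RPKM were added.

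The members and gene lists were chosen with earlier results of these data known. Named genes are all members, other detected globins of the clusters, up to 4 genes per list with the most reads, list genes past 2-fold, and the 10 genes of largest positive difference among those with at least 500 reads. Others are named for their role, or for the read splits, after their values were seen. Some genes of the lists are not reported here and were left out of the lists' counts. Promoters came from RefSeq (6 of 7 members matched). Python 3.11.15 with pandas 2.3.3 and numpy 2.4.6 was used. Alternatives were pseudocounts of 0.1 and 1 RPKM, centring, depth without globin reads, summed copies, reads not divided by length and other read minimums.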

Additional observations from a re-analysis of the deposited data

How the results depend on the processing

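Pseudocounts, centring on the median of all genes (a shift of 0.01) and leaving globin reads out of the depth moved no member's difference beyond its counting interval, and none of them turned a member's direction. Of 50 alternative values, 33 stayed within that interval or within 1.5 times the count. The contrast of embryonic with adult chains over all 7 genes was 0.64 with each adult pair summed and 1.29 without Hba-a1 and Hba-a2. In the alpha cluster it was -0.053 with the pair summed and -0.025 from summed reads, and it turned to 0.12 with Hba-x set against Hba-a1 alone, an alternative added after the data were seen. From reads not divided by length, the adult share over both clusters was 4.17% in MD43 and 4.81% in WT, in the alpha cluster 19.0% and 18.7%, and in the beta cluster 0.362% and 0.876%. Without Hba-a1 and Hba-a2, the share over both clusters was 0.263% in MD43 and 0.631% in WT. Genes past 2-fold numbered 21 higher and 68 lower with at least 100 reads, and 650 higher and 1486 lower with no minimum. No paired analysis was possible because each genotype has a single column of means, and no library could be left out for the same reason. With 2 embryos per genotype, the variation between embryos behind the globin differences was not measured beyond the bounds given above.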
